A study of Arabidopsis thaliana with 3 samples.

Results

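SNC1 (AT4G16890), RPP4 (AT4G16860) and RPP5 (AT4G16950) are intracellular immune receptor genes that lie in 1 cluster on chromosome 4 of Arabidopsis thaliana. These 3 members were chosen by name and position, out of 27444 nuclear protein-coding genes, by a rule that uses no measured value, although earlier results of these data were known when they were chosen. All deposited peaks that touched the stretch from RPP4 to RPP5 (56.29 kb) or the 5 kb on each side of it (66.29 kb in all) were taken, which gave 8 of the 25742 peaks of replicate 1 and 4 of the 13307 peaks of replicate 2.

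The peaks mark places where chromatin was recovered with DEK2, a DEK-type chromatin protein. Chromatin came from whole seedlings aged 14 days, of the genotype dek2-1 with a pDEK2::DEK2-YFP transgene, so all samples are mutants that carry the tagged protein under the DEK2 promoter. An anti-GFP antibody, which binds YFP too, was used for 2 immunoprecipitates, and 1 input sample of the same genotype was made without antibody and has no values used here. The labels give the seedlings no treatment and do not say whether the replicates came from separate cultures, and their spread may therefore be technical. No immunoprecipitate of plants without the tag was analysed here, and every fold enrichment is the authors' own value of a peak over the background modelled by the peak caller.

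SNC1, RPP4 and RPP5 encode receptors of the TIR-NB-LRR class. Such receptors detect pathogen molecules or their effects inside the cell and signal through EDS1 and its partners, which leads to salicylic acid production and local cell death. RPP4 and RPP5 are known for resistance to the downy mildew oomycete Hyaloperonospora arabidopsidis, and SNC1 for a gain-of-function allele that makes plants dwarfed and permanently immune. The cluster is known as a set of similar gene copies whose dosage is held down at several levels, chromatin included. The sources used here do not say what was done with reads that match several places, and the copies are similar, so each value below may contain reads of another copy or lack reads that matched several.

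A shared peak near SNC1 and another near RPP5 were found, and none within 500 bp of RPP4. A peak was called shared when the replicate 1 and replicate 2 peaks overlapped by at least 50% of the shorter, and it was given to a gene when its replicate 1 summit lay inside the gene or within 500 bp of it. Genome-wide 34.2% of protein-coding genes had such a peak, so 2 of 3 is a description of these genes and not a result about them. Either list alone named the same 2 members, SNC1 and RPP5, where 66.7% of all protein-coding genes had a peak in replicate 1 and 37.0% in replicate 2.

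**Figure D1:**
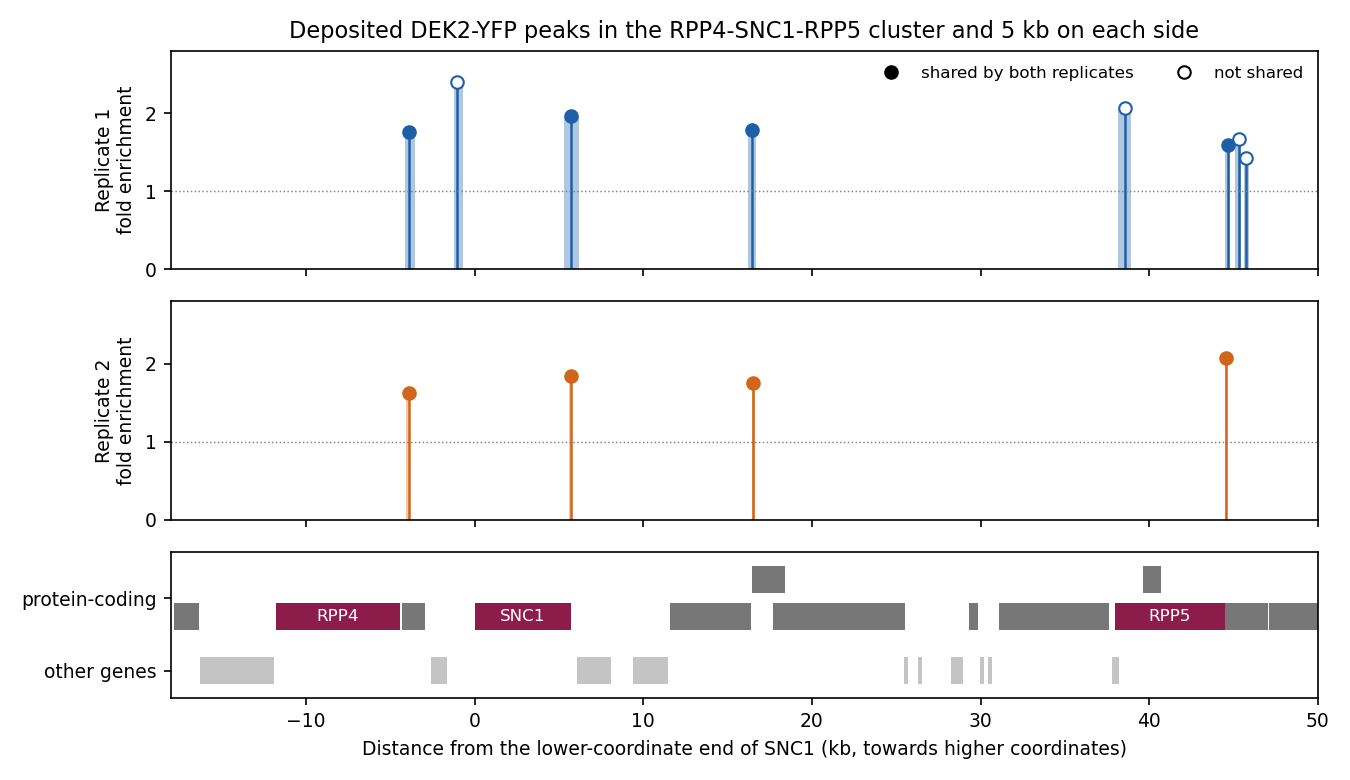
Fold enrichment of every deposited peak (y axis, upper panels) against the distance from the lower-coordinate end of SNC1 in kb (x axis), with shaded peak widths, lines at the summits, filled circles for shared peaks and open circles for the others; the lowest panel shows protein-coding genes, the 3 receptor genes in dark red, above pseudogenes and non-coding genes. The 4 peaks of replicate 2 lie at 4 of the 8 places marked in replicate 1, and no peak lies inside RPP4.

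SNC1 had its shared peak directly at its higher-coordinate end. In replicate 1 the peak lay at chr4:9505580-9506451 (TAIR10) with its summit 7 bp inside the gene. Its fold enrichment was 1.97 and its −log10 q was 9.94. In replicate 2 the peak lay at chr4:9505848-9506004, the summit lay 14 bp inside the gene, the fold was 1.84 and the −log10 q was 2.73. The summits were thus 7 bp apart, where the median over all shared pairs was 75 bp. SNC1 is the only protein-coding gene within 500 bp of either summit, although the wider replicate 1 peak also covers 130 bp of the non-coding gene AT4G16892. Of the 5702 bp of SNC1, peaks covered 6.89% in replicate 1 and 2.19% in replicate 2, and the rest of the gene carried no peak in either list.

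The lower-coordinate side of SNC1 showed the strongest peak of the cluster, and replicate 2 did not list it. It lay at chr4:9499031-9499569 in replicate 1, with a fold of 2.40 and a −log10 q of 22.6. Its summit lay 1042 bp outside SNC1, beyond the limit of 500 bp, and no annotated gene of any kind lies under the peak. The non-coding gene AT4G06430 lies nearer to this summit than SNC1 does. Among replicate 1 peaks with a −log10 q at least as high, 90.5% of 1954 were shared, and this peak was among the 186 that were not. Of 2045 replicate 1 peaks with a fold within 5% of this one, 78.2% were shared. On its commonest background on chromosome 4, replicate 2 listed peaks with folds down to 1.69, but its fold and background at this place are not listed. The background modelled at this place in replicate 1 was 84.8 fragments, above the commonest value of 60.5.

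RPP5 carried a shared peak just beyond its higher-coordinate end. The replicate 1 peak lay at chr4:9544795-9545069 with a fold of 1.59 and a −log10 q of 3.48, and its summit lay 218 bp outside RPP5. The replicate 2 peak lay at chr4:9544756-9544908 with a fold of 2.08 and a −log10 q of 3.69, and its summit lay 81 bp outside. Both summits fall inside the neighbouring protein-coding gene AT4G16957, so the peak cannot be assigned to RPP5 alone. This was the only pair in the cluster in which replicate 2 had the higher fold, and its summits lay farthest apart, at 137 bp.

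Replicate 1 had a further peak inside RPP5, near the opposite end, that replicate 2 lacked. It lay at chr4:9538432-9539202 with a fold of 2.06 and a −log10 q of 10.0, and its summit lay 579 bp inside the lower-coordinate end. Peaks covered 11.8% of the 6523 bp of RPP5 in replicate 1, all of it from this peak, and 0 bp in replicate 2. Of 3687 replicate 1 peaks with a fold within 5% of this one, 55.0% were shared, and of 10003 with a −log10 q at least as high, 68.2% were.

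RPP4, at 7372 bp the longest of the 3 members, had 0 bp under a peak in either list. This is not rare among long genes, as 22.1% of the 1639 protein-coding genes of at least 5 kb had no base under a peak of either replicate. The nearest peaks lay off its higher-coordinate end and missed the limit of 500 bp narrowly. In replicate 1 the summit was 527 bp outside RPP4, in a peak at chr4:9496154-9496717 with a fold of 1.76 and a −log10 q of 6.68. In replicate 2 it was 531 bp outside, in a peak at chr4:9496183-9496385 with a fold of 1.63 and a −log10 q of 1.94. The pair was shared, and both summits fall inside the next protein-coding gene, AT4G16880, of which 42.4% was covered in replicate 1 and 15.3% in replicate 2.

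When the limit was widened to 1000 bp, all 3 members had a shared peak, beside 40.8% of all protein-coding genes. With summits inside the gene as the rule, SNC1 was the only member left, beside 15.3% of all genes.

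The shared peaks nearest to the 3 receptor genes lay off or at the same end of each. Within 500 bp of the higher-coordinate end this held for SNC1 and RPP5, and the share of all genes was not worked out for this distance. A shared summit lay within 1000 bp of the higher-coordinate end in 3 of 3 members, where 24.9% of all protein-coding genes had one, at distances of 7 to 527 bp in replicate 1 and 14 to 531 bp in replicate 2. None of the 3 had a shared summit within 1000 bp of the lower-coordinate end, where 25.2% of all genes had one, and the nearest was 3907 bp away in replicate 1 and 3903 bp in replicate 2. Over all protein-coding genes 15.3% had a shared summit near the higher end and none near the lower. These shares pool genes of both strands, and 3 of 3 is a description of these genes and not a result about them. The gene table used here gives no strand. As background, the TAIR annotation places the 3 genes on the reverse strand, so that transcription starts at the higher-coordinate end, but no start site was used here and the peaks of RPP4 and RPP5 lie inside a neighbouring gene.

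**Figure D2:**
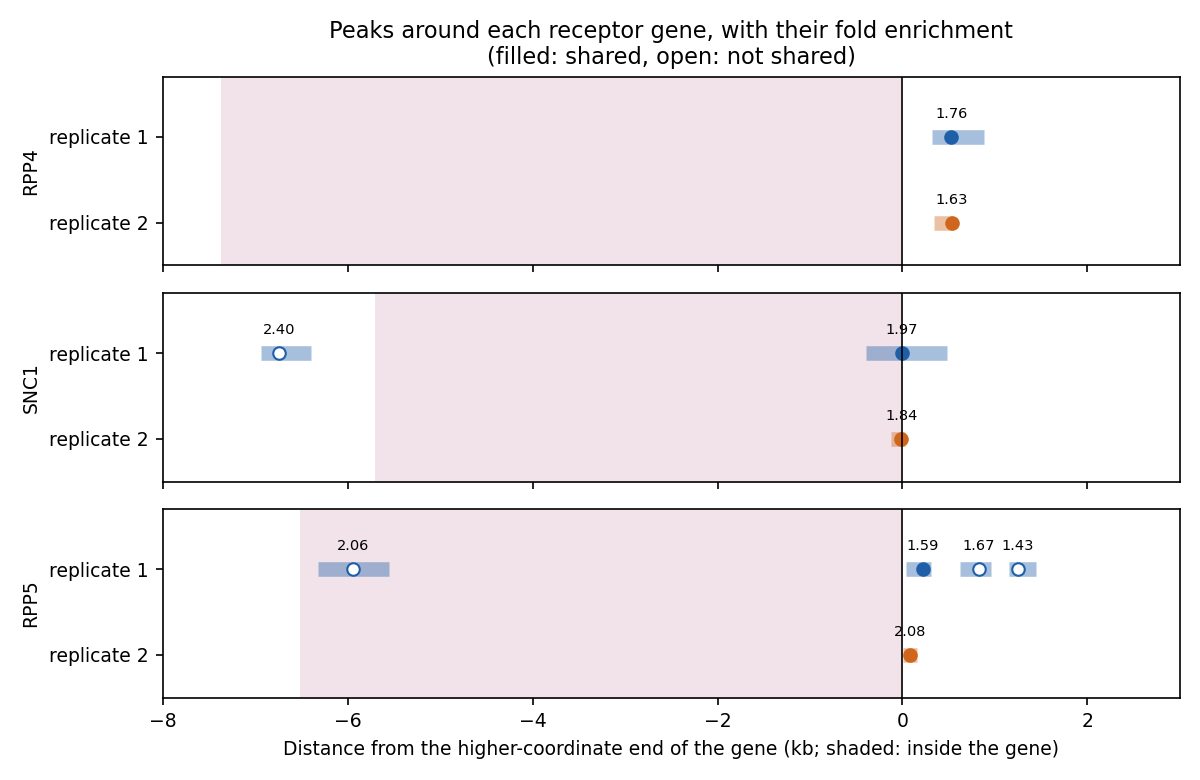
Peaks of both replicates against the distance in kb from the higher-coordinate end of each receptor gene (x axis; the gene is shaded and ends at 0), with bars for peak widths, circles for summits (filled where shared) and the fold enrichment printed above each. The shared summits of all 3 genes lie between 14 bp inside and 531 bp outside the higher-coordinate end. The peaks towards the other end (2.40, with its summit 1042 bp outside SNC1, and 2.06 in RPP5) are in replicate 1 only.

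The remaining peaks of the cluster lay beside other genes. A shared peak stood between the neighbouring protein-coding genes AT4G16900 and AT4G16915. It lay at chr4:9516481-9516952 with a fold of 1.78 and a −log10 q of 8.82 in replicate 1, and at chr4:9516715-9516884 with 1.75 and 2.69 in replicate 2. Its replicate 1 summit is in neither gene and its replicate 2 summit, 35 bp away, is in AT4G16915. The last 2 peaks were in replicate 1 only and lay inside AT4G16957, behind the shared peak at the end of RPP5. They lay at chr4:9545377-9545714 (fold 1.67, −log10 q 4.53) and at chr4:9545911-9546195 (fold 1.43, −log10 q 1.89). The latter was the weakest of the cluster.

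Of the 13 protein-coding genes in the stretch and its flanks, members included, 6 had a shared peak inside or within 500 bp, where 34.2% of all protein-coding genes had one. Beside SNC1 and RPP5 these were AT4G16880, AT4G16900, AT4G16915 and AT4G16957, and the 6 genes shared 4 peaks. AT4G16857, AT4G16920, AT4G16930, AT4G16940, AT4G16955 and AT4G16960, like RPP4, had no base under a peak, as had 38.1% of all protein-coding genes. Among the 11 pseudogenes and non-coding genes, AT4G16892 had the shared peak of SNC1 within 500 bp, the misc_RNA gene AT4G02965 had 24 bp under the replicate 1 peak inside RPP5, and AT4G16870, AT4G16910, AT4G16935, AT4G06430, AT4G06440, AT4G06445, AT4G06450, AT4G06455 and AT4G06460 had none. The share over all pseudogenes and non-coding genes was not worked out, so these entries are a description only.

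The peaks of the cluster differed in strength. Folds ran from 1.43 to 2.40 in replicate 1 (median 1.77, against 1.82 for the whole list) and from 1.63 to 2.08 in replicate 2 (median 1.80, against 2.02). The peak on the lower side of SNC1 stood at percentile 88.1 of the folds of replicate 1 and the peak inside RPP5 at 71.4, while the weakest stood at 7.24. In replicate 2 the −log10 q values lay between 1.94 and 3.69, below the list's median of 3.81, and the highest of them stood at percentile 47.1. None of its 4 peaks reached a −log10 q of 5, so no shared peak of the cluster had that value in both lists. Of the 8 replicate 1 peaks 5 had it, where the median of that whole list was 7.97. The shares of the whole lists at this threshold were not worked out. Of all 25742 replicate 1 peaks, 14929 had a −log10 q of at least 6.68 and 19659 of at least 4.53.

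The enrichments of each shared pair overlapped within counting error. The peak values were solved for the number of fragments at the summit and for the modelled background, which gave 87 to 205 fragments in replicate 1 and 47 to 57 in replicate 2. At the end of SNC1 these were 142 fragments over 71.6 in replicate 1, a ratio of 1.98 (95% exact Poisson interval 1.67 to 2.34), and 49 over 26.2 in replicate 2, a ratio of 1.87 (1.38 to 2.47). At the end of RPP5 the ratio was 1.60 (1.30 to 1.96) in replicate 1 and 2.12 (1.56 to 2.82) in replicate 2, so that even the most unequal pair had overlapping intervals. Beyond RPP4 it was 1.77 (1.48 to 2.11) and 1.65 (1.24 to 2.16). The intervals cover counting error only, and a summit is the highest point of its peak, so the ratios are upper readings.

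**Figure D3:**
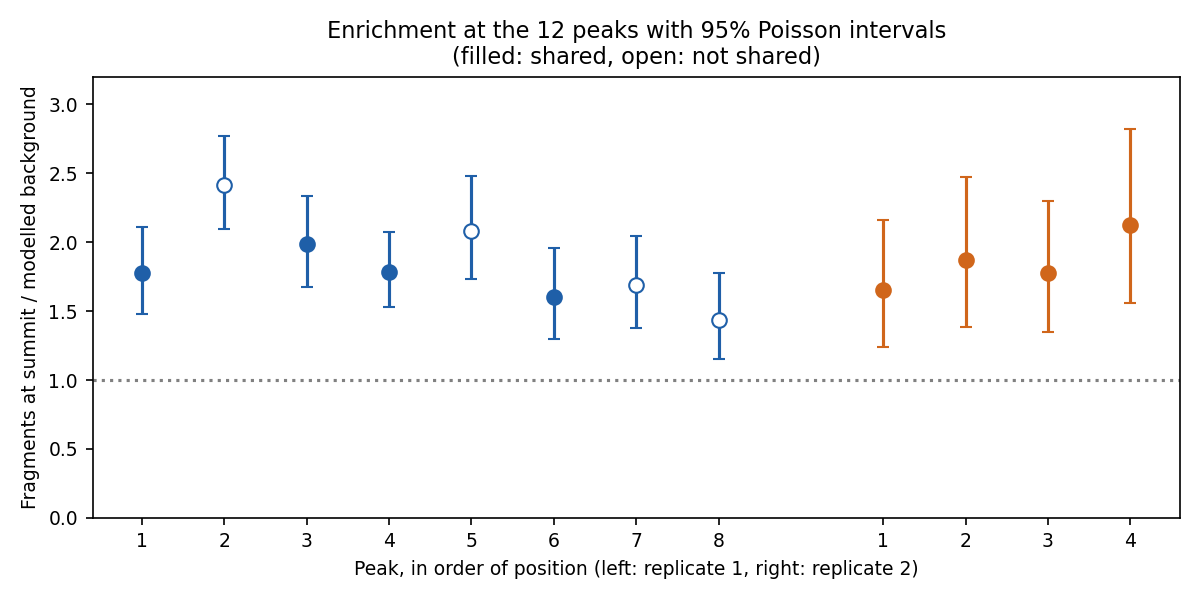
Fragments at the summit divided by the modelled background (y axis) for the 8 peaks of replicate 1 and the 4 peaks of replicate 2 in order of position (x axis), with 95% exact Poisson intervals; filled circles are shared peaks. All intervals lie above 1, which follows from the listing of these peaks as enriched over this same background and is no separate evidence. The replicate 1 and replicate 2 intervals of each shared pair overlap.

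Every replicate 2 peak of the cluster was found again in replicate 1, but not the reverse. Of the 8 replicate 1 peaks 4 were shared, where 42.0% of the whole list was, and of the 4 replicate 2 peaks 4 were, where 88.9% was. The 2 strongest replicate 1 peaks, with 2.40 and 2.06, were not shared, and the shared ones had folds of 1.59 to 1.97. In the whole list peaks were ranked by fold and divided into 10 groups, and the share found again was 14.2% in the lowest group and 89.7% in the highest. The commonest background was 60.5 fragments in replicate 1 and 22.1 in replicate 2, and read depth itself is not known.

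**Figure D4:**
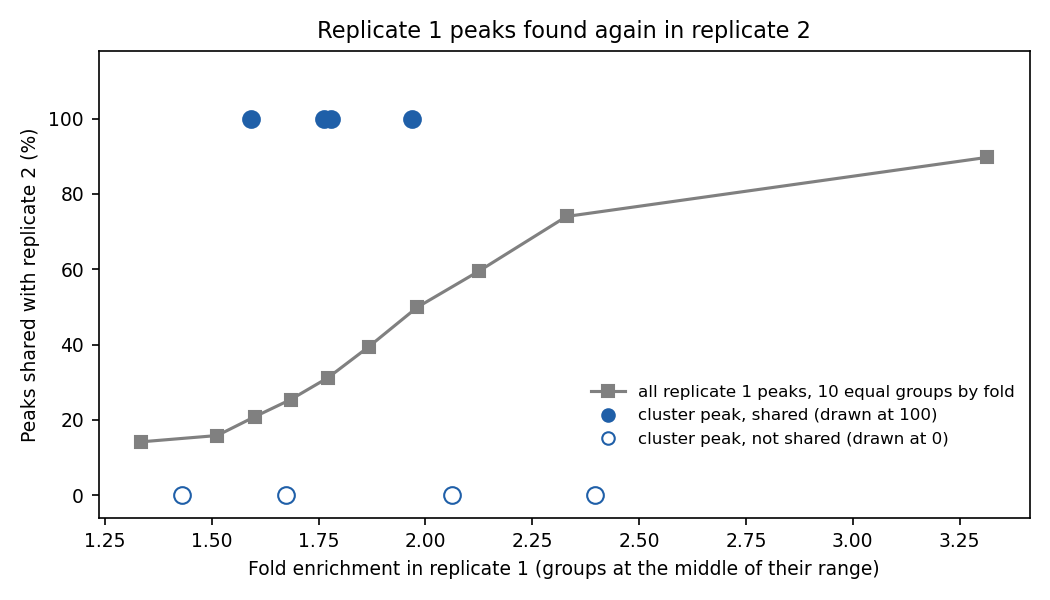
Percentage of replicate 1 peaks shared with replicate 2 (y axis) against their fold enrichment (x axis), for all peaks in 10 equal groups by fold (grey squares) and for the 8 peaks of the cluster (circles at 100 if shared, at 0 if not). The cluster peaks with folds of 2.06 and 2.40 are not shared, while those of 1.59 to 1.97 that are shared lie in a range where fewer than 50% of all peaks are.

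Peaks were sparse over the receptor cluster. With flanks it held 12.1 peaks per 100 kb in replicate 1, against 20.3 on chromosome 4 and 21.6 over all chromosomes. In replicate 2 the values were 6.03, 9.66 and 11.2. Peaks covered 6.21% of the stretch in replicate 1, against 11.9% of all chromosomes, and 1.03% in replicate 2, against 3.41%. Such a density was not unusual. When the chromosomes were divided into 1795 tiles of the same 66.29 kb, 26.2% held at most as many peaks as the cluster in replicate 1, and 32.4% in replicate 2.

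The sparse stretch had long gaps. The longest in replicate 1 measured 21.5 kb and held AT4G16920, AT4G16930 and AT4G16940 whole, and 1.48% of the gaps of that list were as long. It was picked as the longest of 6 gaps, so this percentage describes it and no more. In replicate 2 the gap at this place measured 27.9 kb, because the peak inside RPP5 was missing, and it held RPP5 whole as well (4.53% as long). The gap over RPP4 measured 16.0 kb in replicate 1 and 16.1 kb in replicate 2 (2.65% and 11.9% as long). The genes in these gaps are not shown to lack DEK2, since enrichment below the authors' threshold is not listed.

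**Figure D5:**
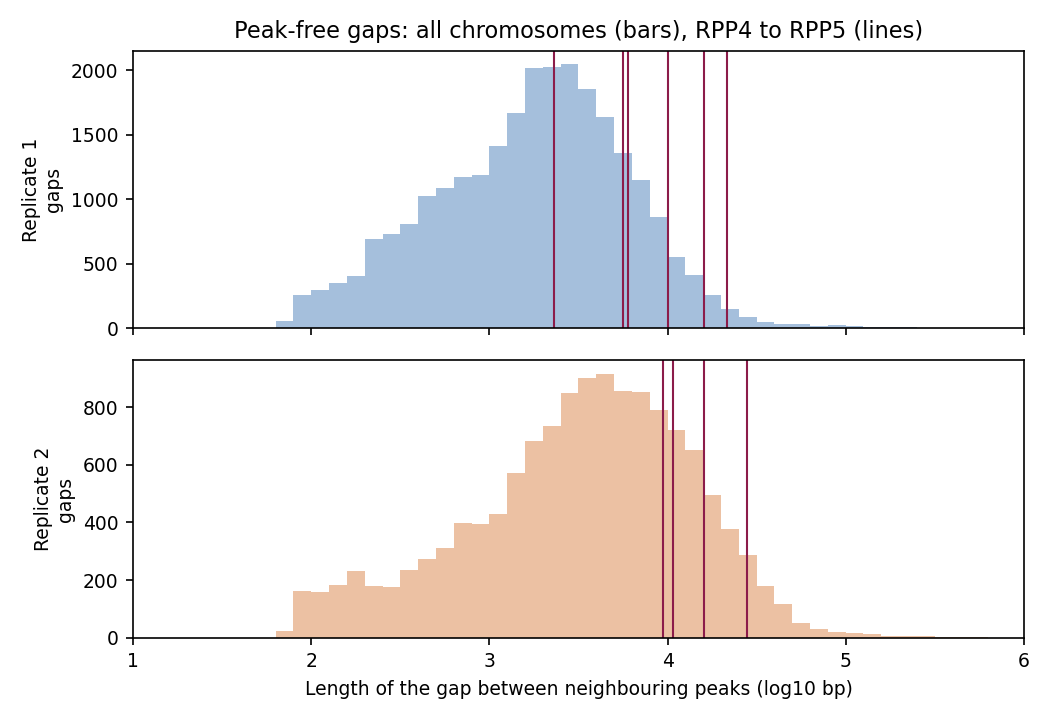
Number of gaps between neighbouring peaks (y axis) by gap length in log10 bp (x axis) over all chromosomes, one panel per replicate, with dark red lines at the gaps between RPP4 and RPP5. The lines at 16.0 and 21.5 kb (replicate 1) and at 16.1 and 27.9 kb (replicate 2) lie in the right part of the distributions, where long gaps are few.

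Just outside the flanks the nearest peaks were, on the lower side, a shared one at chr4:9479542-9480117 with folds of 1.83 and 2.10, and on the higher side a replicate 1 peak at chr4:9551063-9551480 with a fold of 2.39 that was not shared. They lay 8349 and 6308 bp from the outermost members. The nearest replicate 2 peak on the higher side, at chr4:9556219-9556910 with a fold of 2.36, was shared and lay 11464 bp away.

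Other NLR and related receptor genes showed shared peaks about as often as genes in general. Of 32 such genes outside the cluster 13 had one (40.6%, beside 34.2% of all protein-coding genes). Some neighbouring genes of this list were given the same peak, so the 13 genes do not stand for 13 separate peaks. By the same rule 26 had a replicate 1 peak, beside 66.7% of all protein-coding genes, and 15 a replicate 2 peak, beside 37.0%. In the order of the worse of their fold ranks the first were RFL1, with folds of 2.67 and 3.36, RLM3, a resistance gene close to the cluster, with 2.11 and 1.96, and LOV1 with 2.49 and 1.96. RPM1, which guards RIN4, had 1.89 and 1.92. RPS2, another guard of RIN4, had a shared replicate 1 peak with 2.05. The replicate 2 peak paired with it had 1.50, while the replicate 2 peak given to RPS2 by its own summit had 1.80. RPS4, which acts with its neighbour RRS1, and ZAR1, which forms a resistosome, had a peak in replicate 1 only, with 1.56 and 1.79. The named peaks of RFL1, RLM3, LOV1 and RPM1 also lie within 500 bp of another protein-coding gene. The SNC1 pair of 1.97 and 1.84 thus stood among values of the same size.

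Of 25 genes for signalling from SNC1 and for its control 9 had a shared peak (36.0%, beside the same 34.2%). PAD4, the lipase-like partner of EDS1, had 2 shared peaks, the better with folds of 2.16 and 2.15, and MOS1, a regulator of SNC1 expression, had 2.16 and 2.14. MUSE3, a ubiquitin ligase gene that acts on receptor levels, had 2.06 and 2.46, and SAG101, the other partner of EDS1, had 2.90 and 1.59. BON1, a copine gene that restrains SNC1, had 1.54 and 1.67. The peaks of MUSE3, SAG101 and BON1 also lie near another protein-coding gene. EDS1 itself had 2 peaks in replicate 1, the better with 1.87, and none in replicate 2. CPR1, the F-box gene whose product removes SNC1 protein, had a single peak, in replicate 2, with 1.76.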

How the data were processed

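The files are 1 narrowPeak list for each of 2 immunoprecipitates; the input has no values used here. The submitters' processing notes name the TAIR10 build, MACS2 2.2.7.1, SAMtools 1.9, Bowtie2 2.3.5 and Trimmomatic 0.38, with neither roles nor settings. The sources used here do not say whether the input was the control, nor how duplicates and reads that match several places were handled. Columns were read by place, as the deposited lists have no header: a score made from q, a fold enrichment ratio at the summit, and the deposited −log10 p-value and −log10 q-value.

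Pileup and background at each summit were worked out from its fold and p by MACS2's formulas (Python 3.11.15, SciPy 1.17.1). On chromosome 4, pileups came out whole within 0.02 in 100% of 1795 replicate 2 peaks and, after division by 0.894, in 99.9% of 783 replicate 1 solutions on the commonest background. The code recovered the known answers on simulated data. Read depth is not known.

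Gene spans are from RefSeq TAIR10.1, which gives neither strand nor exons, so its coordinates are not printed. Shifting the shared summits in steps of 50 bp gave the lowest share inside genes, 41.3%, at 0 bp. No test was made, since both lists belong to 1 group. Members, lists and the 500 bp rule were chosen with earlier results of these data known. Named are the 3 members, all genes of the stretch, the best 3 of each list and RPM1, RPS2, RPS4, ZAR1, EDS1, PAD4, SAG101, CPR1 and BON1. Alternatives changed the overlap, the q threshold, the summit rule, the flank and the replicates used. No sequence was used here.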

Additional observations from a re-analysis of the deposited data

How the results depend on the processing

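Of the 3 members, 2 had a shared peak, and the stretch held 4 shared peaks. Both counts went to 0 when both lists were limited to a −log10 q of 5 or more and to 0 when 50% of each peak had to overlap, where the widths (275 to 872 bp in replicate 1, 153 to 203 bp in replicate 2) limit what can pass. The members numbered 1 with summits inside the gene only (15.3% of all protein-coding genes) and 3 within 1000 bp (40.8%). With any base of the peak inside the gene they numbered 1. For any base, the q threshold and 50% of each peak, the share of all protein-coding genes was not worked out. Those counts describe the members only. Leaving out either replicate left 2 members, and gave 4 to 8 peaks in the stretch. Replicate 1 had 8 peaks, 5 at a −log10 q of at least 5 and 5 with no flank. Replicate 2 had 4 peaks, 0 at a −log10 q of at least 5 and 3 with no flank. The median −log10 q was 7.97 over the whole list of replicate 1 and 3.81 over that of replicate 2. Counting peaks by summit, any overlap of 1 bp, and a flank of 10 kb (5 shared peaks) moved no count by over 1.5 times. No paired analysis was possible because both replicates belong to the same group and the only other sample, the input, has no values used here. The lists differ in their commonest background, and the part of this in the peaks listed in replicate 1 alone was not tested. The 2 strongest of these had folds of 2.40 and 2.06 in replicate 1, and replicate 2 lists no fold at these places.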
